A study of Mus musculus with 8 samples.

Results

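The genes described here are 10 genes of the integrated stress response and of stress of the endoplasmic reticulum (ER): Atf4, Ddit3, Sesn2, Trib3, Asns, Chac1, Hspa5, Xbp1, Herpud1 and Dnajb9. They were chosen by symbol, through the Ensembl mouse gene IDs of the count files, and are 10 of the 55416 genes those files list. Lung RNA was sequenced from 8 female C57BL/6 mice (C57BL/6J in the methods) aged 6 to 8 weeks, in 3 groups. The study was of endotoxin shock and of YW3-56, an inhibitor of the peptidylarginine deiminases (PADs). The 3 control mice received DMSO, the solvent of the inhibitor, into a vein and then saline into the peritoneum. The 3 LPS mice received lipopolysaccharide (LPS, the endotoxin of gram-negative bacteria) at 35 mg/kg into the peritoneum. The 2 dual-treated mice received an injection of YW3-56 at 10 mg/kg, 0.5 h before the same dose of LPS. Lungs were taken at 24 h. No group received YW3-56 without LPS, so an effect of the inhibitor alone cannot be told apart from its effect on the response to LPS. The methods name no DMSO injection for the LPS mice, while YW3-56 was dissolved in DMSO. Comparisons with the LPS group may thus also differ by DMSO, which was not tested. The libraries held from 19061949 to 20908608 counts, and levels are given as CPM, counts scaled to a common library size, after TMM normalization, which corrects for differences in composition. Within a group, values follow the order control mouse 1, 2 and 4, LPS mouse 1, 6 and 7, and dual-treated mouse 2 and 5.

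In the integrated stress response, kinases that sense ER stress, amino acid shortage, double-stranded RNA or haem shortage phosphorylate the translation factor eIF2α. Overall protein synthesis then falls while the mRNA of the transcription factor ATF4 is translated more, and ATF4 and its target CHOP (the product of Ddit3) switch on genes for amino acid supply, redox defence and cell death. ER stress also acts through IRE1, which splices Xbp1 mRNA, and ATF6, which is cut to release a transcription factor, and both raise chaperones and the machinery that degrades misfolded ER proteins. In the lung, the alveolar type 2 cell, which makes surfactant, and the plasma cell carry a heavy load of secreted protein. PAD inhibitors including YW3-56 have been linked to ATF4 and sestrin 2 in cancer cell lines, and the question here was how these genes stood in the lung. Counts per gene show neither the translation of Atf4 nor the splicing of Xbp1.

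Some libraries stood apart from the rest of their group. The 8 squamous epithelium markers, of which Krt13 was the most abundant, summed to 1.47, 3.10 and 1.29 CPM in the control mice, 0.712, 715 and 2024 CPM in the LPS mice, and 1.41 and 3.38 CPM in the dual-treated mice. Only LPS mice 6 and 7 were high among the 8 libraries, although all 8 genes were called higher in the LPS group. Of all tested genes, 32.6% were called higher there. LPS mice 6 and 7 were also the only ones high in the 7 skeletal muscle markers, led by Acta1, of which 6 passed the filter on low counts and were called higher in the LPS group. The 7 summed to 8.17, 18.2 and 12.7 CPM in the control mice, 15.9, 435 and 1159 CPM in the LPS mice, and 4.31 and 5.75 CPM in the dual-treated mice. The 9 plasma cell markers summed to 633, 641 and 639 CPM in the control mice, 741, 765 and 727 CPM in the LPS mice, and 2607 and 499 CPM in the dual-treated mice. Dual-treated mouse 2 alone was high in this sum. Ighm stood at 1294 and 69.2 CPM in the dual-treated mice against 57.6 to 59.4 CPM in the control mice. Igkc stood at 780 and 53.0 CPM in the dual-treated mice against 86.1 to 94.8 CPM in control. Not all of the 9 were high in mouse 2. Igha stood at 23.2 and 18.2 CPM in the dual-treated mice against 81.2 to 91.8 CPM in control. Of the 9, 2 were called higher and 1 lower in the dual-treatment group than in control, against 9.13% and 7.02% of all tested genes. Derl3 and Txndc5 of that list are also counted among ER genes below, and Sdc1, the list's most abundant gene over the 8 libraries, stood at 196 and 218 CPM in the dual-treated mice against 202 to 238 CPM in control. Leaving out LPS mice 6 and 7 or dual-treated mouse 2 altered how many genes of some lists were called. For comparisons that use these mice, the altered count or the log2FC of the gene concerned is given below.

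The defining markers of lung epithelium and endothelium were present in all libraries, and markers of resident and incoming cells differed between the groups. The calls below stand beside 32.6% of all tested genes called higher and 33.9% lower with LPS. In dual treatment against control these shares were 9.13% and 7.02%. The 7 neutrophil markers, led by S100a9, summed to 214, 118 and 125 CPM in the control mice and 2125, 2948 and 1843 CPM in the LPS mice. They summed to 1715 and 2387 CPM in the dual-treated mice. All 7 were called higher in the LPS group and 6 in the dual-treatment group than in the control group. In dual treatment against LPS, Retnlg, Cxcr2, Mmp8 and Csf3r were called higher (log2FC 1.49, 1.48, 1.08 and 1.05). Ly6g was called lower there (log2FC -2.75), and S100a8 and S100a9 were not called. Of all tested genes, 31.7% were higher and 27.4% lower in that comparison. The 5 alveolar type 2 markers, led by Sftpc, summed to 35136, 29229 and 36806 CPM in the control mice, 25386, 17536 and 14095 CPM in the LPS mice, and 17132 and 28126 CPM in the dual-treated mice, and 4 of the 5 were called lower with LPS. The 3 club cell markers, led by Scgb1a1, summed to 30524, 38777 and 36072 CPM in the control mice, 67061, 56682 and 55242 CPM in the LPS mice, and 23570.4 and 26201 CPM in the dual-treated mice, with 2 called higher and 1 lower with LPS, and 1 lower in the dual-treatment group than in control. The 5 endothelial markers, led by Cdh5, summed to 2419, 2701 and 2778 CPM in the control mice, 1919, 1576 and 1529.9 CPM in the LPS mice, and 2610.2 and 2570.2 CPM in the dual-treated mice, with 3 called lower with LPS, while in the dual-treatment group Pecam1 was called higher (0.60, adjusted p = 0.0143) and Kdr lower (-0.90, adjusted p = 0.00252) than control. The 5 alveolar type 1 markers, led by Ager, summed to 4599.6, 4302 and 4430.4 CPM in the control mice, 3508, 2942 and 2070.0 CPM in the LPS mice, and 2391 and 3156 CPM in the dual-treated mice, again with 3 called lower, and 2 in the dual-treatment group. The 8 macrophage markers, led by Chil3, summed to 824, 551 and 759 CPM in the control mice, 883, 966 and 501 CPM in the LPS mice, and 1386 and 1905 CPM in the dual-treated mice, with 1 called higher and 2 lower with LPS and 5 higher in the dual-treatment group than in control. The 4 B cell markers, led by Cd79b, were low. Their sum lay between 35.9 and 40.8 CPM in the control mice and between 16.6 and 24.4 CPM in the LPS mice. It was 70.4 and 24.7 CPM in the dual-treated mice, so dual-treated mouse 2 was the highest of the 8. Of the 4, 2 were called lower with LPS and 2 higher in dual treatment against LPS. In dual treatment against control, 0 were called. The 6 T cell markers, led by Cd3d, were low as well, between 6.49 and 16.6 CPM in sum. All markers of these lists had more than 3 counts in at least 1 library. In whole lung, more or fewer cells of a type and more or less RNA per cell cannot be told apart, and the part of these cell types in the results below was not tested.

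In the lungs of LPS mice, most of the stress genes were higher than in control lungs, and Ddit3 was lower. At an adjusted p under 0.05 in edgeR's quasi-likelihood test, 8 of the 10 genes were higher, against 32.6% of the 18560 genes tested, and 1 was lower, against 33.9%. Chac1 was not called. In all, 9 of the 10 were called against 66.5% of tested genes, so that most of the lung transcriptome differed between these groups and a call in itself sets the 10 genes little apart. In the dual-treatment group against control, 1 gene, Hspa5, was called higher, against 9.13% of tested genes, and 0 of the 10 were called lower, against 7.02%. DESeq2 also called 0 lower, and the unadjusted edgeR p was under 0.05 for 0 of the 10 in that direction. Together that is 1 of 10 against 16.1% of tested genes. Between the dual-treatment and the LPS group, 7 of the 10 were lower, against 27.4% of tested genes, and 1, Ddit3, was higher, against 31.7%, so that 8 of 10 were called against 59.1%. Without LPS mice 6 and 7, 7 genes were higher and 2 lower with LPS, and 7 were lower and 2 higher in dual treatment against LPS, while without dual-treated mouse 2, 0 were higher or lower than control. The 3 comparisons share mice, and their values are given side by side. All 10 genes passed the filter on low counts.

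**Figure D1:**
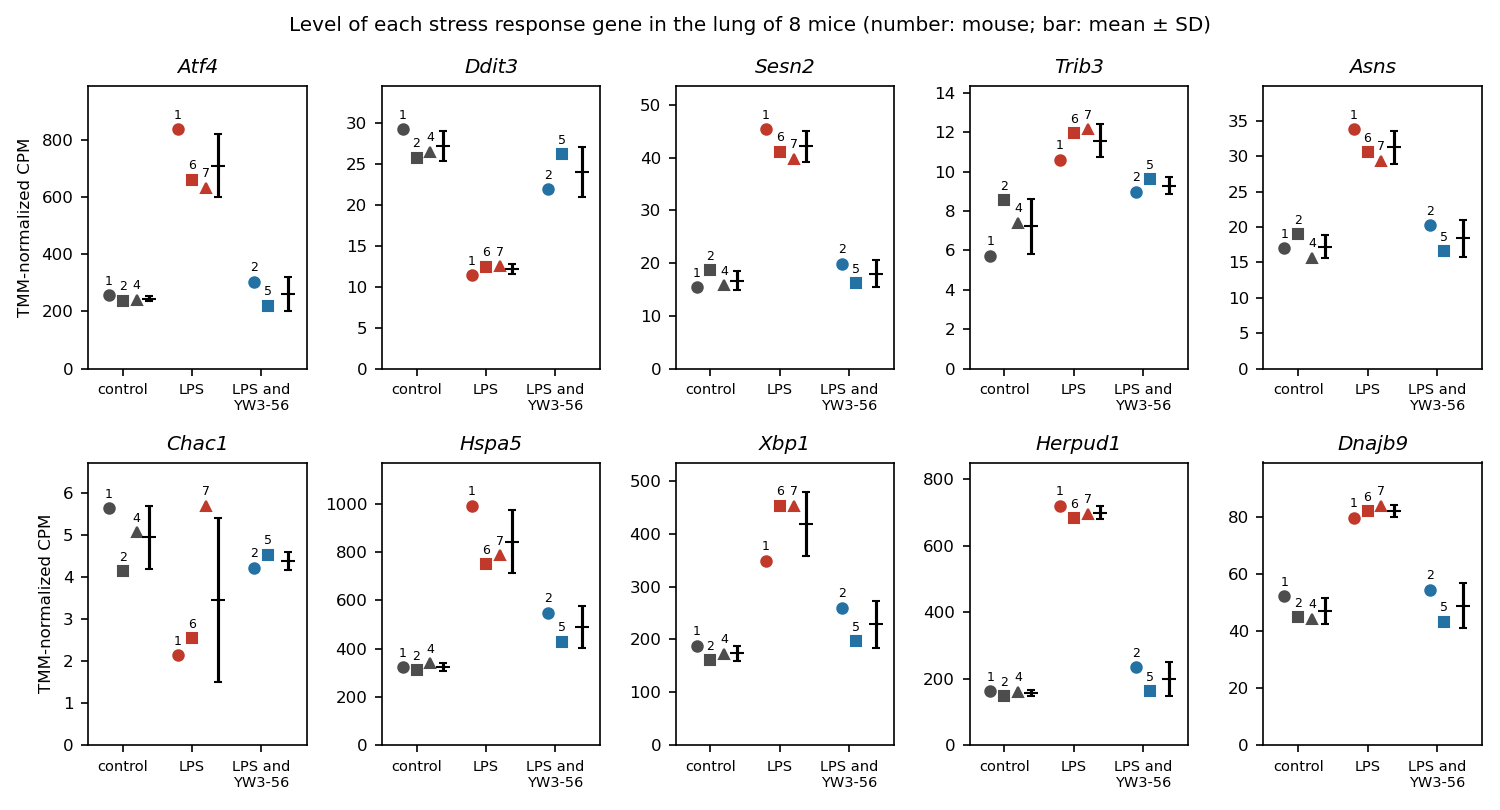
TMM-normalized CPM of the 10 genes in each of the 8 mice (points, numbered by mouse) with the group mean and SD (bars; n = 3, 3 and 2), each panel starting at 0. Atf4, Sesn2, Trib3, Asns, Hspa5, Xbp1, Herpud1 and Dnajb9 lay higher in every LPS mouse than in every control mouse, Ddit3 lay lower, and Chac1 overlapped.

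Atf4 encodes the transcription factor at the centre of the response, and lies on chromosome 15 (ENSMUSG00000042406, GRCm39, chr15:80139372-80141745, plus strand). It stood at 256, 238 and 241 CPM in the control mice, 838, 660.1 and 633 CPM in the LPS mice, and 303 and 220.0 CPM in the dual-treated mice. Each LPS mouse lay above all control and dual-treated mice, and the dual-treated mice lay on either side of the control range. The mean rose from 245 ± 9.56 CPM (SD, n = 3) in the control group to 710.3 ± 111 CPM (SD, n = 3) in the LPS group, a 2.90-fold difference (log2FC 1.54 ± 0.15 SE, adjusted p = 2.06e-05). In the dual-treatment group it was 262 ± 58.8 CPM (SD, n = 2), below LPS (log2FC -1.44 ± 0.18 SE, adjusted p = 1.22e-04) and not called against control (log2FC 0.10 ± 0.17 SE, adjusted p = 0.752). Without dual-treated mouse 2, the log2FC against control was -0.18, and without LPS mice 6 and 7, where LPS mouse 1 stands alone and is assumed to vary like the other mice, the LPS effect was larger (log2FC 1.78, adjusted p = 1.24e-04).

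Sesn2 encodes sestrin 2, a stress-induced inhibitor of mTORC1 that senses leucine, at chr4:132219335-132237815 on the minus strand (ENSMUSG00000028893). It stood at 15.4, 18.7 and 15.9 CPM in the control mice, 45.4, 41.2 and 39.9 CPM in the LPS mice, and 19.9 and 16.2 CPM in the dual-treated mice. The LPS mice were all higher than the other 5 mice, and the dual-treated mice overlapped with the control mice. The LPS group was 2.53-fold above control (log2FC 1.34 ± 0.13 SE, adjusted p = 1.40e-05), with means of 42.2 ± 2.92 and 16.7 ± 1.77 CPM (SD, n = 3 each). The dual-treatment group, at 18.0 ± 2.63 CPM (SD, n = 2), was 2.34-fold below LPS (log2FC -1.23 ± 0.14 SE, adjusted p = 9.39e-05) and was not called against control (log2FC 0.11 ± 0.14 SE, adjusted p = 0.637). At 24 h, Atf4 and Sesn2 mRNA in the 2 mice given the inhibitor with LPS thus lay near control and below every LPS mouse.

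Asns encodes asparagine synthetase, an enzyme long used as a readout of ATF4 (ENSMUSG00000029752, chr6:7671667-7728461, minus strand). Its levels were 17.0, 18.96 and 15.7 CPM in the control mice, 33.8, 30.6 and 29.4 CPM in the LPS mice, and 20.2 and 16.6 CPM in the dual-treated mice. Every LPS mouse lay above every other mouse, and the dual-treated mice overlapped with the control mice. LPS against control gave log2FC 0.86 ± 0.13 SE, adjusted p = 2.32e-04, dual treatment against LPS gave log2FC -0.76 ± 0.14 SE, adjusted p = 0.00141, and dual treatment against control was not called (log2FC 0.095 ± 0.14 SE, adjusted p = 0.701). Trib3 encodes a pseudokinase that restrains ATF4 and AKT signalling (ENSMUSG00000032715, chr2:152179337-152191958, minus strand). Its levels were low, at 5.72, 8.54 and 7.40 CPM in the control mice, 10.6, 12.0 and 12.2 CPM in the LPS mice, and 8.99 and 9.61 CPM in the dual-treated mice. The groups were ordered control, dual treatment and LPS without overlap, but of the differences only that between LPS and control passed the test (log2FC 0.68 ± 0.18 SE, adjusted p = 0.00723). Dual treatment gave log2FC 0.36 ± 0.20 SE, adjusted p = 0.247 against control and log2FC -0.32 ± 0.20 SE, adjusted p = 0.193 against LPS. The Trib3 call was lost with scaling by library size only (log2FC 0.40, adjusted p = 0.0969) and without LPS mice 6 and 7 (log2FC 0.56, adjusted p = 0.093), and with library size scaling the log2FC of dual treatment against LPS turned to 0.0040.

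Ddit3, which encodes CHOP, lies at chr10:127124268-127132163 on the plus strand (ENSMUSG00000025408). It stood at 29.3, 25.8 and 26.5 CPM in the control mice, 11.5, 12.5 and 12.6 CPM in the LPS mice, and 21.9 and 26.3 CPM in the dual-treated mice. The LPS mice were all lower than the other 5 mice, and dual-treated mouse 5 lay within the control range and mouse 2 below it. The mean fell from 27.2 ± 1.85 to 12.2 ± 0.617 CPM (SD, n = 3 each), a 2.24-fold drop (log2FC -1.16 ± 0.12 SE, adjusted p = 2.41e-05). It was 1.98-fold higher in the dual-treatment group than in the LPS group (log2FC 0.99 ± 0.13 SE, adjusted p = 1.86e-04) and was not called against control (log2FC -0.18 ± 0.13 SE, adjusted p = 0.401). Its exons share 3576 bases with Mars1 on the opposite strand, and the strand setting of the counting was not stated, so reads there cannot be assigned with certainty. Mars1 stood at 46.7, 51.4 and 49.2 CPM in the control mice, 38.3 to 41.4 CPM in the LPS mice, and 70.7 and 55.1 CPM in the dual-treated mice.

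Chac1 encodes an enzyme that degrades glutathione and is a target of ATF4 and CHOP (ENSMUSG00000027313, chr2:119180757-119184866, plus strand). It stood at 5.63, 4.13 and 5.06 CPM in the control mice, 2.14, 2.54 and 5.69 CPM in the LPS mice, and 4.22 and 4.52 CPM in the dual-treated mice. LPS mice 1 and 6 were below all others and LPS mouse 7 was the highest of the 8, so the groups overlapped and no comparison passed the test. LPS against control gave log2FC -0.51 ± 0.35 SE, adjusted p = 0.219, dual treatment against LPS gave log2FC 0.34 ± 0.39 SE, adjusted p = 0.475, and dual treatment against control gave log2FC -0.18 ± 0.38 SE, adjusted p = 0.806. Without LPS mouse 7 it was lower with LPS (log2FC -1.07, adjusted p = 0.00473) and higher in the dual-treatment group than in the LPS group (log2FC 0.89, adjusted p = 0.0182), and likewise without LPS mice 6 and 7 (log2FC -1.20, adjusted p = 0.014 and log2FC 1.02, adjusted p = 0.0344, respectively). LPS mouse 7 was also the mouse with the highest sums of squamous and muscle markers.

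The ER arm was higher with LPS in all 4 of its genes, against 32.6% of all tested genes. Hspa5 encodes BiP, the major ER chaperone and the protein that holds the ER stress sensors inactive (ENSMUSG00000026864, chr2:34661982-34668880, plus strand). It stood at 323, 309 and 339 CPM in the control mice, 992, 750.1 and 788 CPM in the LPS mice, and 549 and 429 CPM in the dual-treated mice. All LPS mice were highest, and both dual-treated mice lay above every control mouse and below every LPS mouse. The LPS group was 2.61-fold above control (log2FC 1.38 ± 0.14 SE, adjusted p = 2.71e-05), and the dual-treatment group was 1.51-fold above control (log2FC 0.60 ± 0.16 SE, adjusted p = 0.0316) and 1.73-fold below LPS (log2FC -0.79 ± 0.16 SE, adjusted p = 0.00253). The call against control ended without dual-treated mouse 2, when the log2FC was smaller (log2FC 0.38, adjusted p = 0.239), and, at a similar log2FC, without control mouse 1, 2 or 4 (log2FC 0.59, 0.56 and 0.60, adjusted p = 0.0943, 0.114 and 0.0768).

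Xbp1 encodes the transcription factor that IRE1 splicing switches on (ENSMUSG00000020484, chr11:5470606-5483027, plus strand). It stood at 188, 160.4 and 173 CPM in the control mice, 349, 453 and 453 CPM in the LPS mice, and 259.9 and 197 CPM in the dual-treated mice. The LPS mice were highest, the dual-treated mice lay between the groups without overlap, and LPS mouse 1 was lower than LPS mice 6 and 7. LPS against control gave log2FC 1.27 ± 0.15 SE, adjusted p = 5.24e-05, dual treatment against LPS gave log2FC -0.87 ± 0.17 SE, adjusted p = 0.00162, and dual treatment against control was not called (log2FC 0.39 ± 0.16 SE, adjusted p = 0.13). Leaving out each mouse in turn gave log2FC from 0.15 to 0.55 for Xbp1 in dual treatment against control. Exons of Hspa5 share 2457 bases with Rabepk, and those of Xbp1 share 1526 bases with Ccdc117, each on the opposite strand. Rabepk stood between 13.4 and 23.0 CPM and Ccdc117 between 31.2 and 61.6 CPM over the 8 mice, below every value of Hspa5 and Xbp1, respectively.

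Herpud1 encodes an ER membrane protein of the degradation machinery (ENSMUSG00000031770, chr8:95113022-95123141, plus strand). It stood at 162, 146 and 160.1 CPM in the control mice, 721, 682 and 696 CPM in the LPS mice, and 235 and 161 CPM in the dual-treated mice. The LPS mice were close to each other and far above the rest, dual-treated mouse 5 lay within the control range, and dual-treated mouse 2 lay above it. With a 4.48-fold difference, Herpud1 had the highest log2FC of the 10 genes in LPS against control (log2FC 2.17 ± 0.14 SE, adjusted p = 2.17e-06), and the lowest in dual treatment against LPS (log2FC -1.82 ± 0.16 SE, adjusted p = 2.30e-05). It was not called in dual treatment against control (log2FC 0.34 ± 0.15 SE, adjusted p = 0.163), where without dual-treated mouse 2 the log2FC was 0.02 and without dual-treated mouse 5 the test was passed (log2FC 0.56, adjusted p = 0.0172). Dnajb9 encodes ERdj4, a co-chaperone of BiP that acts on IRE1 and in degradation (ENSMUSG00000014905, chr12:44252341-44257171, minus strand). It stood at 52.2, 44.7 and 44.2 CPM in the control mice, 79.6, 81.9 and 83.8 CPM in the LPS mice, and 54.3 and 43.2 CPM in the dual-treated mice. Again the LPS mice were highest, and the dual-treated mice lay on either side of the control range. LPS against control gave log2FC 0.80 ± 0.11 SE, adjusted p = 1.59e-04, dual treatment against LPS gave log2FC -0.75 ± 0.13 SE, adjusted p = 7.55e-04, and dual treatment against control gave log2FC 0.052 ± 0.12 SE, adjusted p = 0.822.

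**Figure D2:**
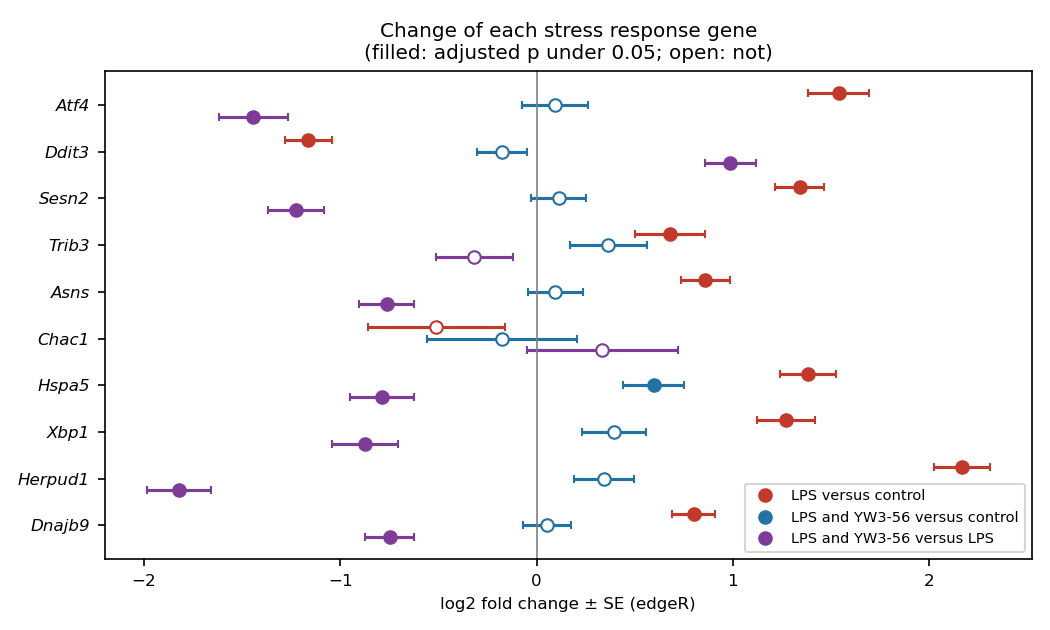
Fitted log2FC of the 10 genes with its SE in the 3 comparisons; filled points passed an adjusted p under 0.05. Hspa5 is the only one of the 10 filled in LPS and YW3-56 versus control, at 0.60, and Ddit3 the only one filled below 0 in LPS versus control, at -1.16.

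Levels between genes were compared as CPM per kb of the Ensembl canonical transcript. In the control lungs Atf4 was the most abundant, at 141 ± 5.49 CPM per kb (SD, n = 3), followed by Xbp1 at 88.2 ± 6.99, Hspa5 at 65.3 ± 2.96 and Herpud1 at 50.0 ± 2.72. Ddit3 (27.8 ± 1.89) and Dnajb9 (19.1 ± 1.82) formed the middle, and Sesn2 (4.78 ± 0.508), Asns (3.51 ± 0.336), Trib3 (3.45 ± 0.678) and Chac1 (2.97 ± 0.455) the low end, where the ranges of mean ± SD of Asns, Trib3 and Chac1 overlapped. In the LPS lungs the order was Atf4 (408 ± 63.9), Herpud1 (224 ± 6.25), Xbp1 (213 ± 30.4), Hspa5 (170.3 ± 26.3), Dnajb9 (33.2 ± 0.86), Ddit3 (12.4 ± 0.631), Sesn2 (12.1 ± 0.838), Asns (6.37 ± 0.471), Trib3 (5.54 ± 0.401) and Chac1 (2.08 ± 1.17). There the ranges of mean ± SD overlapped for Herpud1 and Xbp1, Xbp1 and Hspa5, Ddit3 and Sesn2, and Asns and Trib3. In the dual-treatment group the 7 highest genes stood in the same order as in control, from Atf4 at 150.2 ± 33.7 to Sesn2 at 5.17 ± 0.755 CPM per kb (SD, n = 2), but these ranges overlapped for Atf4 and Xbp1 (116 ± 22.7), Xbp1 and Hspa5 (98.7 ± 17.2), Ddit3 (24.6 ± 3.13) and Dnajb9 (19.8 ± 3.21), Sesn2 and Trib3 (4.45 ± 0.213), and Trib3 and Asns (3.75 ± 0.532).

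Among genes upstream of ATF4, the kinases and the phosphatase subunits were higher with LPS. Of 12 genes for eIF2α, its kinases, its exchange factor and its phosphatase subunits, 8 were higher and 2 lower with LPS, against 32.6% and 33.9% of all tested genes (median log2FC 0.68, against -0.01). Ppp1r15a, which encodes GADD34, the inducible subunit that reverses eIF2α phosphorylation, stood at 79.6, 74.6 and 74.1 CPM in the control mice, 469, 248 and 255 CPM in the LPS mice, and 70.3 and 70.4 CPM in the dual-treated mice, and the dual-treated mice were just below the control range. Its log2FC was 2.09 with LPS (adjusted p = 3.37e-05) and -2.20 for dual treatment against LPS (adjusted p = 1.10e-04). Ppp1r15b, which encodes the constitutive alternative to that subunit (1.26, adjusted p = 7.23e-06), was higher as well. So were all 4 kinase genes, from Eif2ak3, which encodes the ER stress kinase PERK (0.61, adjusted p = 3.58e-04), to Eif2ak2, which encodes the double-stranded RNA sensor PKR (1.75, adjusted p = 2.21e-05). The exchange factor genes went both ways. Eif2b2 lay higher in every LPS mouse (85.4, 88.2 and 87.7 CPM) than in every control mouse (39.6, 32.9 and 36.7 CPM). The exchange factor genes Eif2b3 (-0.44, adjusted p = 0.0136) and Eif2b5 (-0.53, adjusted p = 5.23e-04) were lower, the call of Eif2b3 ending without control mouse 1 (log2FC -0.40, adjusted p = 0.0529) and without LPS mice 6 and 7 (log2FC -0.45, adjusted p = 0.0602). In dual treatment against control 2 of the 12, Eif2ak2 and Eif2b3, were higher and 0 lower by edgeR (median 0.23, against 0.0042 over all tested genes). At an unadjusted p under 0.05, 5 were higher and 0 lower, and DESeq2 also called 0 lower. Of all tested genes, 9.13% were higher and 7.02% lower in that comparison. The count of higher genes became 0, 1 and 0 without control mouse 1, 2 and 4, and 0 and 2 without dual-treated mouse 2 and 5. Eif2b3 lost its call in each of these fits (log2FC from 0.47 to 0.59, against 0.54 with all mice), and Eif2ak2 without control mouse 1 or 4 (log2FC 0.77 and 0.72, against 0.79) or dual-treated mouse 2 (log2FC 0.41). In dual treatment against LPS, 27.4% of all tested genes were lower and 31.7% higher. Against LPS, 7 were lower and 2 higher (median -0.58, against 0.06 over all tested genes), or 6 and 2 without dual-treated mouse 2, when Eif2ak3 lost its call (log2FC -0.31, adjusted p = 0.0905), and 6 and 4 with library size scaling. The LPS counts were 9 higher and 1 lower without LPS mice 6 and 7.

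Among 10 ER stress sensors, related factors and their proteases, which include Eif2ak3 again, 4 were higher and 5 lower with LPS (median log2FC -0.25), against 32.6% and 33.9% of all tested genes. For dual treatment against LPS, these shares were 31.7% and 27.4%. In the ATF6 family, Atf6 stood at 81.0, 80.3 and 85.0 CPM in the control mice, 201, 159.7 and 171 CPM in the LPS mice, and 82.5 and 80.6 CPM in the dual-treated mice, while Atf6b stood at 63.4, 61.9 and 61.8 CPM in the control mice, 32.8, 34.4 and 26.1 CPM in the LPS mice, and 70.4 and 69.7 CPM in the dual-treated mice. The LPS mice were all highest for Atf6 and all lowest for Atf6b (1.11 and -1.004, adjusted p = 1.28e-05 and 3.51e-05). Ern1, which encodes IRE1α, was lower with LPS (-0.58, adjusted p = 5.56e-04), as was Creb3l2 (-1.05, adjusted p = 3.34e-05), whereas Creb3 was higher (0.74, adjusted p = 3.02e-04), as was Creb3l1 (0.64, adjusted p = 0.00812), whose call was lost with library size scaling (log2FC 0.35, adjusted p = 0.0973). In dual treatment against control, 0 of the 10 were called higher and 0 lower by edgeR or by DESeq2, with 1 higher and 2 lower at an unadjusted p under 0.05. By edgeR, 9.13% of all tested genes were higher and 7.02% lower there. Without LPS mouse 7 or without dual-treated mouse 2, 1 was lower. Against LPS, 3 were higher and 4 lower (medians -0.10 and 0.092), or 3 and 3 without dual-treated mouse 2 and 4 and 2 with library size scaling, when Eif2ak3 (log2FC -0.0074, adjusted p = 0.958) and Creb3 (log2FC -0.17, adjusted p = 0.174) were not called. With LPS, 4 were higher and 4 lower when LPS mice 6 and 7 were left out, as Mbtps1 was not called (log2FC -0.37, adjusted p = 0.0574).

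Of 7 transcription factors that pair with ATF4, 4 were higher and 2 lower with LPS (32.6% and 33.9% of all tested genes), 0 were higher and 1 lower in dual treatment against control (9.13% and 7.02%), and 1 was higher and 5 lower in dual treatment against LPS (31.7% and 27.4%, list medians 0.77, -0.39 and -1.16). For dual treatment against control, 1 was higher and 2 lower by DESeq2 and at an unadjusted p under 0.05, and the 1 lower became 4 without LPS mouse 1 and 2 without dual-treated mouse 5, while without dual-treated mouse 2 there were 1 higher and 1 lower. Without LPS mice 6 and 7, 5 were higher and 2 lower with LPS, and 1 higher and 6 lower in dual treatment against LPS. With all LPS mice kept and dual-treated mouse 2 left out, the latter were 1 and 4. Cebpb, an inflammatory C/EBP factor, stood at 42.2, 49.0 and 60.4 CPM in the control mice, 205, 291 and 233 CPM in the LPS mice, and 60.3 and 112 CPM in the dual-treated mice, and its relative Cebpg, a widely expressed partner of ATF4 in amino acid responses, at 90.8, 88.3 and 80.7 CPM in the control mice, 21.5, 23.5 and 21.8 CPM in the LPS mice, and 100.1 and 73.1 CPM in the dual-treated mice. The LPS mice had the highest Cebpb and the lowest Cebpg values (2.27 and -1.96, adjusted p = 2.85e-05 and 1.94e-06), and the dual-treated mice lay on either side of the control range of Cebpg. Atf3, an early stress factor, was higher with LPS (1.86, adjusted p = 4.29e-04), most in LPS mouse 1, with 156, 63.0 and 75.7 CPM against 23.1, 29.2 and 28.5 CPM in control and 17.2 and 14.6 CPM in dual-treated mice. Atf5 was lower than control in both treated groups (-0.84 with LPS and -1.01 with dual treatment, adjusted p = 1.11e-04 and 9.21e-04).

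Further targets of ATF4 and CHOP, a list of 14 of which Fgf21 did not pass the filter and in which Cebpb and Ppp1r15a are counted again, showed 9 genes higher and 3 lower with LPS (median log2FC 0.94), against 32.6% and 33.9% of all tested genes. For dual treatment against control, these shares were 9.13% and 7.02%. In dual treatment against control 2 were higher and 1 lower (median -0.11), or 3 and 0 without dual-treated mouse 2, and at an unadjusted p under 0.05 4 were higher and 4 lower. The cystine transporter gene Slc7a11 stood at 1.08, 0.892 and 0.368 CPM in the control mice, 56.8, 49.2 and 64.7 CPM in the LPS mice, and 17.0 and 4.87 CPM in the dual-treated mice. It was highest in the LPS mice, and both dual-treated mice were above all control mice, mouse 2 more so (6.19 and 3.81 against control, adjusted p = 6.43e-06 and 0.00163). The leucine transporter gene Slc7a5 was likewise called in both (3.05 and 1.51, adjusted p = 1.02e-05 and 0.00767), and without dual-treated mouse 2 the dual-treatment log2FC of Slc7a11 and Slc7a5 were 2.62 and 0.74 (adjusted p = 0.00284 and 0.0279). Their shared heavy chain Slc3a2 was higher with LPS (0.94, adjusted p = 7.78e-05) and lower than control in the dual-treatment group (-0.47, adjusted p = 0.0388), the latter a call that ended, at a similar log2FC, without control mouse 1, 2 or 4 (log2FC -0.46, -0.46 and -0.52, adjusted p = 0.106, 0.119 and 0.0612) or dual-treated mouse 2 (log2FC -0.45, adjusted p = 0.132). The death receptor gene Tnfrsf10b, a CHOP target, was higher with LPS (3.22, adjusted p = 1.56e-06), while the CHOP-linked genes Ero1a (-0.44, adjusted p = 0.00198) and Bbc3 (-0.57, adjusted p = 0.00229) and the lipoprotein receptor gene Vldlr (-1.56, adjusted p = 1.08e-06) were lower. Against LPS, 9 of 13 were lower in the dual-treatment group, Gdf15 among them (-2.28, adjusted p = 0.00245), and 2 higher (median -1.41). Of all tested genes, 27.4% were lower and 31.7% higher in that comparison. The 2 became 1 without control mouse 4 or LPS mouse 6 or 7, when Ero1a was not called. Its log2FC was 0.30 with all mice, 0.24 without LPS mice 6 and 7, and 0.25 and 0.30 without dual-treated mouse 2 and 5.

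Sesn2 was not the sestrin with the highest fold change. Sesn1, better known as a p53 and FOXO target, stood at 45.6, 49.2 and 49.9 CPM in the control mice, 364, 297 and 287 CPM in the LPS mice, and 36.9 and 35.3 CPM in the dual-treated mice, and Ddit4, which encodes the mTORC1 inhibitor REDD1, at 34.2, 34.4 and 33.5 CPM in the control mice, 423, 433 and 341 CPM in the LPS mice, and 88.0 and 59.0 CPM in the dual-treated mice. All LPS mice were far above the other mice for both genes, and the dual-treated mice were below all control mice for Sesn1 and above them for Ddit4. Of 6 sestrins and other stress brakes on mTORC1, which include Sesn2, 4 were higher and 0 lower by edgeR with LPS (median log2FC 0.96), against 32.6% and 33.9% of all tested genes, with 0 lower also at an unadjusted p under 0.05 and by DESeq2, and 5 higher without LPS mice 6 and 7. Sesn1 reached 2.71 and Ddit4 3.55 (adjusted p = 4.26e-07 and 5.66e-07). In dual treatment against control, 1 of the 6 was higher and 2 were lower, against 9.13% and 7.02% of all tested genes. Compared with control, Ddit4 was higher in the dual-treatment group (1.11, adjusted p = 0.00269, and without dual-treated mouse 2 0.76, adjusted p = 0.0186) and Sesn3 (-0.93, adjusted p = 0.00345) and Deptor (-0.61, adjusted p = 0.0143) were lower, but Deptor was not called, at a similar log2FC, without control mouse 2 (log2FC -0.60, adjusted p = 0.0523) or dual-treated mouse 2 (log2FC -0.60, adjusted p = 0.0652). Against LPS 5 of the 6 were lower, Sesn1 by the widest margin (-3.13, adjusted p = 1.46e-06), with a list median of -1.23. In that comparison 27.4% of all tested genes were lower.

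Enzymes of amino acid and folate metabolism are the classical supply arm of ATF4. Of 14 such genes, which include Asns, 7 were higher and 3 lower with LPS (median log2FC 0.88), against 32.6% and 33.9% of all tested genes, and 5 were higher and 1 lower in the dual-treatment group (median 0.67), against 9.13% and 7.02%. For dual treatment against LPS, these shares were 31.7% and 27.4%. Against LPS, 5 were higher and 4 lower (median 0.20), or 2 higher and 4 lower without dual-treated mouse 2. Leaving out LPS mice 6 and 7, 6 were higher and 2 lower with LPS, as Aldh1l2 (log2FC 1.06, adjusted p = 0.22) and Gpt2 (log2FC -0.55, adjusted p = 0.074) were not called, and 2 were higher and 3 lower in dual treatment against LPS. With LPS, Aldh1l2 was also not called without control mouse 1, 2 or 4 (log2FC 1.33, 1.52 and 1.70, against 1.51 with all mice) or LPS mouse 7 (0.96). Nor was Gpt2 without control mouse 2 or 4 (log2FC -0.48 and -0.56, against -0.56) or LPS mouse 6 (-0.42). The mitochondrial folate enzyme gene Mthfd2 stood at 5.19, 3.94 and 4.14 CPM in the control mice, 12.5, 9.41 and 8.54 CPM in the LPS mice, and 16.2 and 9.53 CPM in the dual-treated mice, and Psat1, of serine synthesis, at 9.39, 7.18 and 7.95 CPM in the control mice, 17.8, 23.1 and 20.2 CPM in the LPS mice, and 24.8 and 13.8 CPM in the dual-treated mice. For both, every treated mouse was above every control mouse, and dual-treated mouse 2 was the highest of all 8. Against control, Mthfd2 reached 1.20 with LPS and 1.54 with dual treatment (adjusted p = 0.00198 and 0.00494), and Mthfd1l 2.48 and 1.56 (adjusted p = 9.76e-06 and 0.00236). The 5 genes higher in the dual-treatment group than in control became 4, 4 and 4 without control mouse 1, 2 and 4, and 2 and 7 without dual-treated mouse 2 and 5. Those called without mouse 2 were Mthfd2 (log2FC 1.08, adjusted p = 0.0481) and Mthfd1l (log2FC 1.07, adjusted p = 0.0169), and Psat1 was not (log2FC 0.73, adjusted p = 0.101). The transsulfuration genes Cbs and Cth were lower with LPS (-1.89 and -1.84, adjusted p = 1.37e-04 and 2.63e-04). Cth was also lower than control in the dual-treatment group (-1.26, adjusted p = 0.0213), but in no fit without 1 of the control or dual-treated mice (log2FC from -1.42 to -1.17, adjusted p from 0.0534 to 0.0713).

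Of 20 ER chaperones and foldases, which include Hspa5 and Dnajb9, 11 were higher and 0 lower in the dual-treatment group (median log2FC 0.44), against 9.13% and 7.02% of all tested genes, while 9 were higher and 4 lower with LPS (median 0.29), against 32.6% and 33.9%. By DESeq2 and at an unadjusted p under 0.05, 0 of the 20 were lower in the dual-treatment group as well, and 13 were higher at that unadjusted p. The 11 became 4, 3 and 5 without control mouse 1, 2 and 4, while all genes called in that comparison went from 2997 to 1788, 1553 and 1710. The list median was 0.43 without any 1 control mouse and 0.29 without dual-treated mouse 2. In dual treatment against LPS, 31.7% of all tested genes were higher and 27.4% lower. Between dual treatment and LPS, 8 were higher and 5 lower, or 4 and 6 without dual-treated mouse 2 and 4 and 4 without LPS mice 6 and 7. Without LPS mice 6 and 7, 8 were higher and 3 lower with LPS, as P4hb (log2FC 0.30, adjusted p = 0.115) and Canx (log2FC -0.17, adjusted p = 0.286) were not called. With library size scaling, 5 were higher and 6 lower with LPS, and 12 higher and 3 lower in dual treatment against LPS.

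Sdf2l1, an ER stress-induced partner of BiP, stood at 11.0, 10.5 and 14.3 CPM in the control mice, 9.67, 15.1 and 13.5 CPM in the LPS mice, and 48.8 and 34.9 CPM in the dual-treated mice. Both dual-treated mice lay above the other 6, which overlapped. Dual treatment gave log2FC 1.81 ± 0.22 SE, adjusted p = 8.05e-04 against control and log2FC 1.72 ± 0.22 SE, adjusted p = 1.62e-04 against LPS, and LPS against control was not called (log2FC 0.10 ± 0.21 SE, adjusted p = 0.69). The disulfide isomerase gene Pdia4 stood at 65.8, 70.2 and 70.1 CPM in the control mice, 42.8, 46.5 and 42.9 CPM in the LPS mice, and 127 and 91.1 CPM in the dual-treated mice, lowest in the LPS mice and highest in the dual-treated mice (-0.64 with LPS, 0.66 with dual treatment, adjusted p = 0.00118 and 0.00968). Calr, which encodes the lectin chaperone calreticulin, stood at 233, 231 and 250.3 CPM in the control mice, 354, 365 and 315 CPM in the LPS mice, and 481 and 411 CPM in the dual-treated mice, lowest in control and highest in the dual-treated mice (0.53 and 0.91 against control, adjusted p = 0.00172 and 0.00119, the former 0.25 and 0.0583 with library size scaling). By contrast Manf, a secreted ER stress factor, was highest with LPS (1.47, adjusted p = 3.95e-05), at 189, 177 and 127 CPM against 64.7, 54.1 and 58.9 CPM in control and 95.9 and 74.4 CPM in dual-treated mice. Dual-treated mouse 2, the mouse with the high sum of plasma cell markers, was above mouse 5 for Sdf2l1, Pdia4 and Calr. Without mouse 2, only mouse 5 is left in its group. Fewer of the 20 genes, and fewer of all tested genes, were then called higher than control. The log2FC against control were then 1.52 for Sdf2l1, 0.76 for Calr and 0.38 for Pdia4, against 1.81, 0.91 and 0.66 with both mice. The part of the plasma cell markers in this was not tested. Mouse 5 on its own was above every control mouse for Sdf2l1, Pdia4 and Calr.

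**Figure D3:**
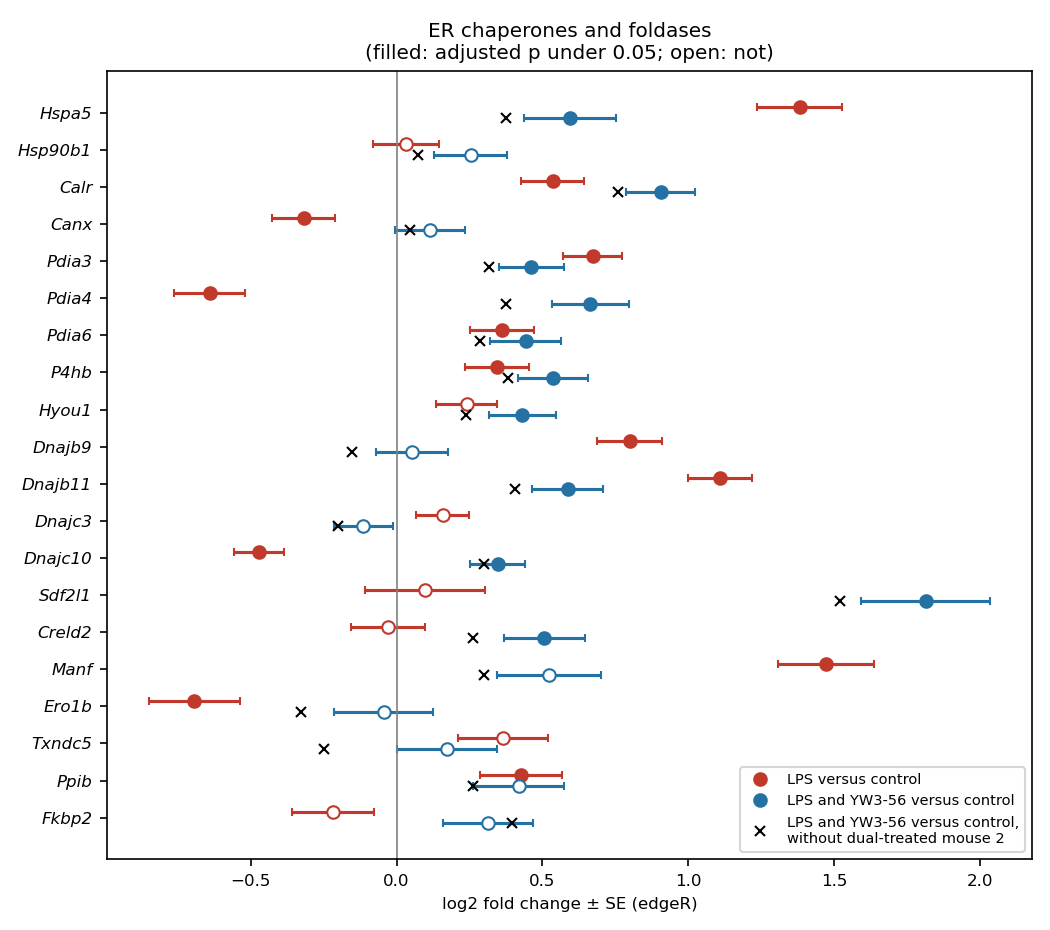
Fitted log2FC with SE of 20 ER chaperones and foldases in LPS versus control and in LPS and YW3-56 versus control (filled: adjusted p under 0.05); crosses give the latter without dual-treated mouse 2. Sdf2l1 lies at 0.10 with LPS, at 1.81 with dual treatment and at 1.52 without mouse 2, and Hspa5 at 1.38, 0.60 and 0.38.

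Of 16 genes of ER-associated degradation, which include Herpud1, 11 were higher and 2 lower with LPS (median log2FC 0.47), against 32.6% and 33.9% of all tested genes, 2 were higher and 0 lower by edgeR in dual treatment against control, against 9.13% and 7.02%, and 9 were lower and 4 higher in dual treatment against LPS (medians 0.095 and -0.41). For the last comparison, the shares of all tested genes were 27.4% lower and 31.7% higher. At an unadjusted p under 0.05 and by DESeq2, 0 were lower than control in the dual-treatment group too, and 6 were higher at that unadjusted p. The 2 called higher were Edem1 and Edem2. The count of higher genes was 1, 0 and 1 without control mouse 1, 2 and 4, and 0 and 5 without dual-treated mouse 2 and 5. Edem2 (0.42, adjusted p = 0.0362) was not called in any of these fits (log2FC from 0.32 without dual-treated mouse 2 to 0.48). Against LPS, the counts were 9 lower and 2 higher without mouse 2, 6 and 4 without mouse 5, and 5 and 5 with library size scaling. They were 7 and 2, and 10 were higher and 2 lower with LPS, as Erlec1 was not called (log2FC 0.17, adjusted p = 0.46), when LPS mice 6 and 7 were left out. Library size scaling gave 7 higher and 3 lower with LPS. Selenos, which ties the retrotranslocation channel to its ATPase, was higher with LPS (1.09, adjusted p = 6.60e-05), and Derl2, a component of that channel, lower (-0.73, adjusted p = 1.29e-04). Edem1, a mannosidase-like factor that marks glycoproteins for degradation, was higher than control in the dual-treatment group (0.58, adjusted p = 0.0122), at 117 and 88.2 CPM against 68.2, 68.0 and 70.3 CPM in control and 66.7, 60.7 and 62.5 CPM in LPS mice, but not without dual-treated mouse 2 (log2FC 0.33, adjusted p = 0.116) or control mouse 2 (log2FC 0.57, adjusted p = 0.0504). Derl3, a form of derlin abundant in plasma cells, was at 14.6 and 1.84 CPM in the dual-treated mice and between 1.07 and 2.25 CPM in the other 6 mice. It was higher in dual treatment than in LPS (2.83, adjusted p = 0.00499), and without mouse 2, which alone was high, it gave log2FC 0.65, adjusted p = 0.194. Without LPS mice 6 and 7 it gave log2FC 2.93, adjusted p = 0.0692.

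Since 8 of the 10 genes moved together with LPS while Ddit3 and Chac1 did not, the promoters were searched, on both strands, for 3 motifs known from these pathways. They were the CARE to which ATF4 binds with a C/EBP partner (TGATGNAA), the ERSE of ATF6 (CCAAT, 9 bases, CCACG), and the core of the UPRE of XBP1 (TGACGTGG, which ends in the reverse complement of CCACG). Windows were the 250 bases before and 50 bases after the start from RefSeq (GRCm38.p6), placed on GRCm39 by exact match, and all 10 genes had 1 window. The CARE was in the windows of Trib3, Asns, Chac1 and Herpud1, that is 4 of 10 genes, against 3.97% of 32851 windows. That of Trib3 lies after the start, so 3 held it in the 250 bases before it, against 3.45%. The ERSE was in that of Hspa5, 1 of 10 genes against 0.119% of windows, and the UPRE core was in 0 of the 10, against 0.676%. Herpud1, the gene with the highest log2FC in LPS against control, and Chac1, which was not called, hold the same 8 letters, TTGCATCA, on the strand of the gene. The stretches around the matches before the start are shown, with the motif in capitals, because those of Herpud1, Asns and Chac1 carry the CARE although only the first 2 were called with LPS, and that of Hspa5 carries the only ERSE among the 10 windows. That of Asns (chr6:7693214-7693243, minus strand) lies in exons of Asns and of 1700012J15Rik, those of Chac1 (chr2:119181519-119181548) and Hspa5 (chr2:34662032-34662060) in an annotated exon of the same gene, and that of Herpud1 (chr8:95112905-95112992) outside annotated exons, within Gm15890 on the opposite strand. Those of Chac1, Hspa5 and Herpud1 are given on the plus strand.
Herpud1: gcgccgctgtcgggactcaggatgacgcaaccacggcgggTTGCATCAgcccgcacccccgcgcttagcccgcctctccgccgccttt
Chac1: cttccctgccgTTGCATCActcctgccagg
Asns: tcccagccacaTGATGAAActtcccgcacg
Hspa5: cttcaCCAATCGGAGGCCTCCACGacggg
A match is a description of the letters, and binding was not measured.

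By Pearson r of log2 CPM over the 8 libraries, among 12154 genes with a mean of at least 5 CPM, the patterns most like Atf4 were those of Map4k4 (0.999), Psmd11 (0.998) and Tcp1 (0.998). Those most like Sesn2 were Mrpl37 (0.999), Hspa9 (0.998) and Rnf4 (0.996), and those most like Hspa5 were Rrbp1 (0.997), Tcirg1 (0.996) and Med15 (0.996). The libraries form 3 groups, so such values mostly describe the group means: 1423, 1350 and 847 genes had r over 0.95 with Atf4, Sesn2 and Hspa5, respectively. Map4k4, for instance, stood at 214, 203 and 208 CPM in the control mice, 674, 576 and 541 CPM in the LPS mice, and 253 and 189 CPM in the dual-treated mice. Like Atf4, it was high in the LPS mice and near control in the dual-treated mice.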

How the data were processed

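RNA of 8 mouse lungs was sequenced. By the submitters' processing notes and methods, the authors filtered reads with FastQC 0.11.9 and Trim Galore, aligned them to GRCm39 with HISAT2 2.2.1, counted them per gene with featureCounts 2.0.1, and deposited raw counts. The annotation release and strand setting were not given in the sources used here, which leaves overlapping genes uncertain. The 10 genes were found by symbol through GENCODE M39 (54749 of 55416 IDs matched, and the other 667 held 0.0533% of counts). Ddit3 has 2 IDs, and that with the longest exons was used (the other had 0 counts). With edgeR 4.0.16 in R 4.3.3, counts were filtered by filterByExpr (18560 genes), scaled by TMM (factors 0.81 to 1.11) and tested in 1 quasi-likelihood fit of all 8 libraries, with Benjamini-Hochberg adjusted p under 0.05 over all tested genes as the call. SE is the log2FC divided by the root of its F statistic. The steps were tested on simulated counts. DESeq2 1.42.0, other scalings, filters and call rules, the 2 compared groups only, and leaving out mice were alternatives. All 10 genes are named in every comparison. Of each list, up to 3 called genes with the highest and 3 with the lowest log2FC (mean of at least 1 CPM) were named, and others for their role or because few were called, in each case after their values were seen. The list gene Srpr had no match. The members and lists were chosen with earlier results of these data known.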

Additional observations from a re-analysis of the deposited data

How the results depend on the processing

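The counts of the 10 genes called were the same under DESeq2, RLE scaling, either filter and fits of the 2 compared groups. With library size scaling, 7 and not 8 were higher with LPS, as Trib3 was not called (log2FC 0.40, adjusted p = 0.0969), and the other counts were the same. With a fold over 2 required, beside either an unadjusted or an adjusted p under 0.05, the genes higher with LPS went from 8 to 5, those lower in dual treatment against LPS from 7 to 3, those higher there from 1 to 0, and those higher in dual treatment against control from 1 to 0, since the added threshold removes smaller changes. Without LPS mice 6 and 7, 7 genes were higher and 2 were lower with LPS and 2 higher in dual treatment against LPS. Leaving out each mouse in turn gave 1 to 2 lower with LPS, 0 to 2 higher in dual treatment against control, and 1 to 2 higher in dual treatment against LPS. Genes higher with LPS stayed at 8 and those lower in dual treatment against LPS at 7 in each such fit. Signs turned for values that had not passed the test. In dual treatment against control, leaving out each mouse in turn gave log2FC from -0.18 to 0.28 for Atf4, -0.073 to 0.23 for Sesn2, -0.087 to 0.20 for Asns and -0.15 to 0.18 for Dnajb9, lowest without dual-treated mouse 2, and -0.018 for Dnajb9 without control mouse 4. In dual treatment against LPS, Trib3 was at 0.0040 with library size scaling. The causes were not tested. Over all tested genes, library size scaling moved the median log2FC from -0.01 to -0.29 with LPS and from 0.06 to 0.38 in dual treatment against LPS, and the share of calls that were higher from 49.0% to 35.6% and from 53.6% to 71.0%. The groups were of different mice, so no paired analysis was made. Where a group was left with 1 mouse, that mouse is assumed to vary like the other groups. Chac1 had the fewest counts of the 10 genes, 36 to 115 per library, and the largest SE in LPS against control, 0.35.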

Other observations

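Cytosolic aminoacyl-tRNA synthetases, which charge tRNAs with amino acids and are in part ATF4 targets, did not move as a block. Of 18 genes, 10 were higher and 5 lower with LPS (median log2FC 0.51), against 32.6% and 33.9% of all tested genes, 3 higher and 0 lower in dual treatment against control, against 9.13% and 7.02%, and 5 higher and 8 lower in dual treatment against LPS (medians 0.26 and -0.16). For the last comparison, the shares of all tested genes were 31.7% higher and 27.4% lower. Wars1, the tryptophan enzyme, which interferon-γ is known to induce, stood at 169, 153 and 177 CPM in the control mice, 1445, 1028 and 1061 CPM in the LPS mice, and 159 and 175 CPM in the dual-treated mice. The LPS mice were all far above the rest, and the dual-treated mice lay within the control range (2.83 with LPS and -2.82 for dual treatment against LPS, adjusted p = 9.74e-07 and 5.94e-06). Lars1, the leucine enzyme, went the other way, at 38.5, 42.0 and 46.2 CPM in the control mice, 23.7, 23.2 and 21.7 CPM in the LPS mice, and 57.0 and 55.4 CPM in the dual-treated mice (-0.89 with LPS, adjusted p = 4.08e-05). The 3 higher than control in the dual-treatment group were Gars1, Lars1 and Vars1, and the count became 0, 0 and 1 without control mouse 1, 2 and 4, and 0 and 6 without dual-treated mouse 2 and 5. Without a control mouse, the log2FC of the lost calls stayed near those with all mice (Gars1 0.48 to 0.58 against 0.54, Lars1 0.35 to 0.45 against 0.41, Vars1 0.77 and 0.79 against 0.81), and without dual-treated mouse 2 they were 0.33, 0.36 and 0.40. Lars1 was also not called without dual-treated mouse 5 (log2FC 0.40, adjusted p = 0.0875). By edgeR at an unadjusted p under 0.05, 10 were higher and 0 lower there, and DESeq2 called 4 higher and 0 lower. Without LPS mice 6 and 7, 2 were lower with LPS, and 3 were higher and 7 lower in dual treatment against LPS. With all LPS mice kept and dual-treated mouse 2 left out, the latter were 3 and 9. With library size scaling 8 were higher and 5 lower in dual treatment against LPS.

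Of 13 tested genes of the ER translocon and signal peptidase, through which new proteins enter the ER, 9 were higher and 1 lower with LPS (median log2FC 0.64), against 32.6% and 33.9% of all tested genes. Scaling by library size gave 7 and 4. The translocon genes Sec61a1 (1.09, adjusted p = 2.64e-05) and Ssr3 (1.30, adjusted p = 9.26e-06) were among the higher ones, and Sec62 (-0.56, adjusted p = 0.00117) was the lower. In the dual-treatment group 3 were higher and 1 lower than control, against 9.13% and 7.02%. The 3 (Sec61g, Spcs3 and Ssr4) became 2, 1 and 0 without control mouse 1, 2 and 4, and 0 and 3 without dual-treated mouse 2 and 5, and the 1 lower (Sec62, -0.41) lost its call in each of these fits at a similar log2FC, from -0.49 to -0.38. Where they lost theirs, Sec61g stood at 0.61 to 0.65 (against 0.69 with all mice) and Ssr4 at 0.61 and 0.66 (against 0.72). Spcs3 was not called without control mouse 1, 2 or 4, at 0.56, 0.63 and 0.51 (against 0.57). Against LPS, 1 was higher and 6 lower, against 31.7% and 27.4% of all tested genes, or 4 and 3 with library size scaling. Spcs3, of the signal peptidase, stood at 44.4, 48.8 and 42.9 CPM in the control mice, 34.6, 41.1 and 38.5 CPM in the LPS mice, and 78.0 and 56.9 CPM in the dual-treated mice, highest in the dual-treated mice (0.57 against control, adjusted p = 0.0241, and without dual-treated mouse 2 0.30, adjusted p = 0.297).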
